A study of Homo sapiens with 6 samples.

Results

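The genes described here encode the cullin scaffolds and F-box substrate receptors of the cullin-RING ubiquitin ligases, together with SKP1 and RBX1. They were chosen by name: every probe set whose platform gene symbol begins with FBXO, FBXL or FBXW, or is SKP1, SKP2, RBX1, CCNF, BTRC or one of the cullins CUL1, CUL2, CUL3, CUL4A, CUL4B, CUL5, CUL7 and CUL9. This gave 187 of the 54675 probe sets on the array and 75 genes. A further 4 probe sets that list such a symbol beside another gene were not assigned to either gene. Of the 75 genes, 5 are annotated by RefSeq as pseudogenes or non-coding RNAs that carry an F-box gene's name.

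Total RNA came from Hep3B, an established human hepatocellular carcinoma line. Cells received viral particles for a miR-17 TuD or an NC TuD (a tough decoy, an RNA that holds microRNAs on exposed binding sites, and its control) for 48 hours in 10.0 μg/mL polybrene, with the multiplicity of infection set to 5. They were then selected in 1.0 μg/mL puromycin, and after 2 weeks the resistant colonies of each transduction were pooled into a stable line. Each group has 3 arrays. Both groups share the parental cells, the transduction procedure and the puromycin selection. Each group rests on 1 pooled line, and the labels do not say that the 3 samples were separate cultures. The p-values therefore reflect only how far these samples scatter, and that scatter may be technical. The sample descriptions also carry a code with PLUSDOX on the miR-17 TuD arrays and NODOX on the NC TuD arrays. What it stands for is not stated, and it cannot be told apart from the decoy.

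A cullin-RING ligase is built on a cullin. The cullin holds a RING protein, such as RBX1, and its ubiquitin-charged enzyme at one end and a substrate receptor at the other. In the SCF form the scaffold is CUL1, SKP1 is the adaptor, and the F-box protein chooses the substrate, often by a phosphorylated stretch. F-box proteins are named by what follows the F-box: leucine-rich repeats in FBXL, WD40 repeats in FBXW and other domains in FBXO. SKP2, BTRC and CCNF are F-box proteins with older names. Many of their substrates control the cell cycle, and FBXO31, a receptor for cyclin D1 after DNA damage, is a reported target of the miR-17 family.

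MicroRNAs of this family pair with target mRNAs mainly through the seed, bases 2 to 8. The 6 mature sequences below, from RefSeq (GRCh38.p14), are shown because they are the microRNAs a decoy against the family would be designed to hold. Capitals mark the seed.
hsa-miR-17-5p: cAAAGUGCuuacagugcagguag
hsa-miR-20a-5p: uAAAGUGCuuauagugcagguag
hsa-miR-20b-5p: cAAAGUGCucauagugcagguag
hsa-miR-93-5p: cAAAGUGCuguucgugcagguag
hsa-miR-106a-5p: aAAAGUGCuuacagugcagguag
hsa-miR-106b-5p: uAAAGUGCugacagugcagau

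The seed AAAGUGC was the same in all 6, and 8 of the 2370 mature microRNA names in the RefSeq table carry it. The other two are hsa-miR-519d-3p and hsa-miR-526b-3p. The sequences lie on 3 chromosomes: miR-17-5p at chr13:91350618-91350640 and miR-20a-5p at chr13:91351072-91351094, both on the plus strand, miR-93-5p at chr7:100093815-100093837 and miR-106b-5p at chr7:100094043-100094063, and miR-20b-5p at chrX:134169850-134169872 and miR-106a-5p at chrX:134170244-134170266, these 4 on the minus strand. The stretch that pairs with the seed reads GCACUUU in a target RNA. Transcript sequences were not analysed here, so no member was searched for it.

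All values below are log2 expression on Affymetrix HG-U133 Plus 2 arrays, and each difference is the miR-17 TuD mean less the NC TuD mean. Array medians lay between 2.75 and 2.78, from 34.9% to 35.4% of probe sets stood at the shared lowest value of 2.12, and arrays correlated at 0.9994 to 0.9997 within a group and at 0.9988 to 0.9991 across groups. Of 8 hepatocyte marker genes, 8 stood above 7 on all 6 arrays, while blood and endothelial markers stayed under 4. Of the fibroblast collagens, COL1A1 had means of 12.79 in the miR-17 TuD arrays and 12.45 in the NC TuD arrays and COL1A2 9.35 and 8.91, neither called, and COL3A1 stood at the lowest value. The mean log2 level of these 3 ran from 7.85 to 8.22 and from 7.82 to 7.85. The hepatocyte markers moved with the group: 7 of 8 fell, and their mean log2 level ran from 12.10 to 12.22 in the miR-17 TuD arrays and from 12.84 to 12.89 in the NC TuD arrays. The part of these markers in the results below was not tested. In bulk RNA, fewer cells of a kind and less RNA per cell cannot be told apart.

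Of the 75 genes, 66 had a probe set above the filter on low values and were tested, each through its brightest probe set, and 9 were not. The filter, at 2.14, lay close to the lowest value of 2.12. Some of the 66 therefore stood near the floor, where a change would not be seen. Among the 66, FBXO22, FBXL5 and FBXW11 rose, FBXO17, SKP2, FBXO33, FBXO3 and FBXO34 fell, and 58 did not pass an adjusted p of 0.05 in limma with Benjamini-Hochberg adjustment over 13949 genes. These changes were small, from a fall of 0.43 to a rise of 0.27 on the log2 scale. FBXO31 had the largest difference of the group at 0.62, 1.53-fold, and missed the threshold (adjusted p = 0.0554). No cullin passed, and neither did SKP1 or RBX1. The 8 called genes are 12.1% of the 66, near the 11.4% called among all genes tested. By direction, 4.55% of the members rose against 6.78% of all genes, and 7.58% fell against 4.6% of all genes. The median difference of the members was -0.0080, against 0.00056 over all genes, and the median absolute difference 0.094 against 0.079. In 27 of the 66, or 40.9%, the 3 values of one group all lay above those of the other, against 33% of all genes. The miR-17 TuD values were the higher ones in 9 members, 13.6% against 18.3% of all genes, and the lower ones in 18, 27.3% against 14.7% of all genes. The share called in either direction was near the background, while the shares on the lower side, called or without overlap, were above it and those on the higher side below it. The called counts rest on few genes and moved with the processing. With median centring 5 members were called higher and 4 lower, against 1426 and 717 of all genes. With the replicate numbers taken as pairs, no member was called lower. Among member probe sets without the suffix s_at or x_at, 14.4% lay apart upward and 16.5% downward. Among those with it, 8.33% and 25% did, against 13.7% and 13.6% of all probe sets. That background was not split by suffix, so it is not like for like. The members were picked with results known, so these shares are a description and were not tested.

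**Figure D1:**
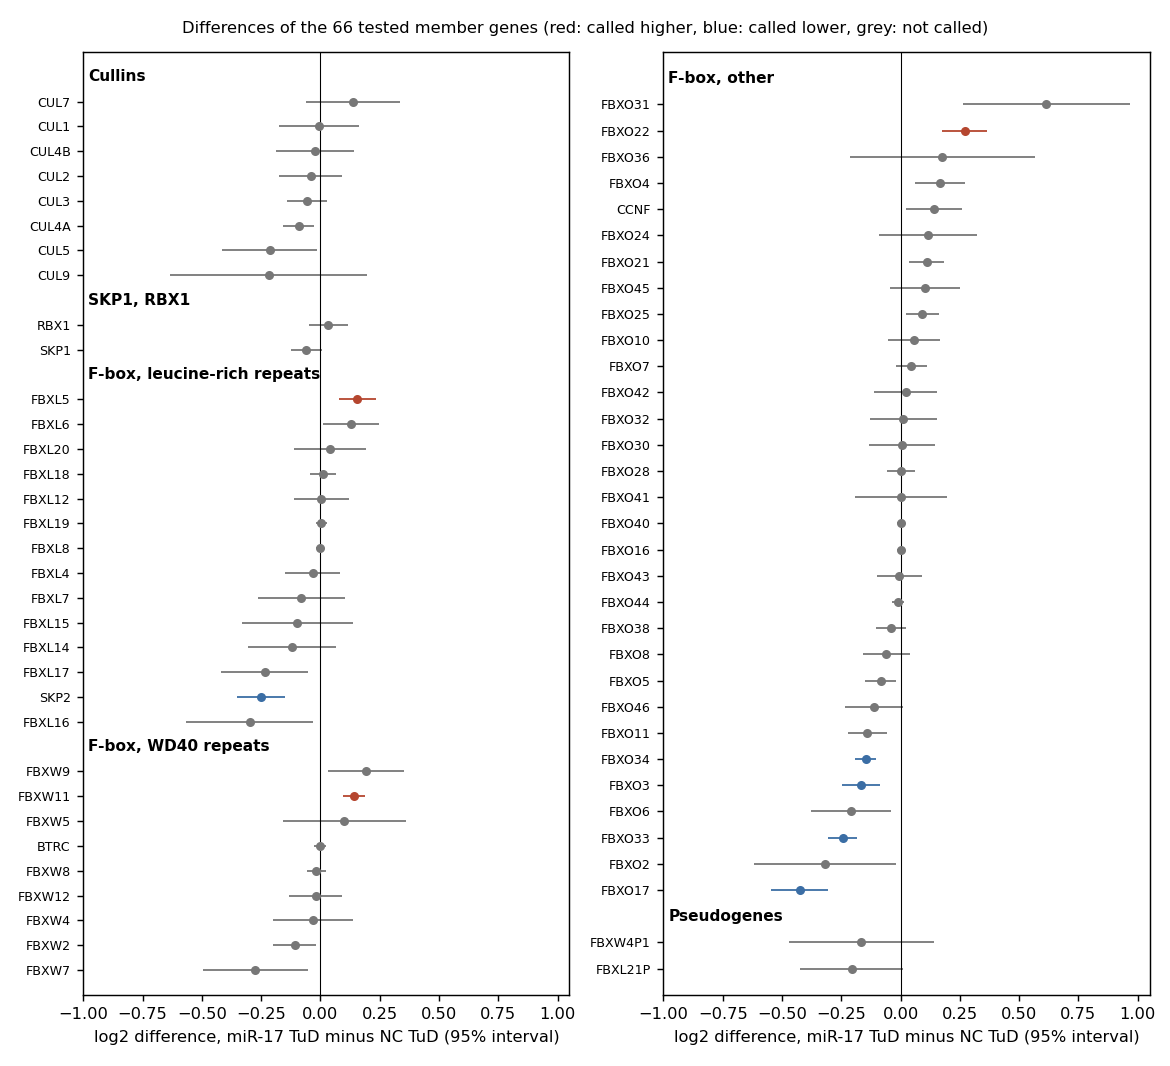
Log2 difference (x axis, miR-17 TuD minus NC TuD) of each of the 66 tested genes, grouped by role and sorted, with the 95% confidence interval from limma. Red points are the 3 genes called higher, blue the 5 called lower and grey the 58 not called. FBXO31, at 0.62, stands farthest from 0 with a wide interval, and all 8 cullins are grey.

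The cullins, the scaffolds of the ligases, showed differences from -0.22 to 0.14, and 0 of 8 passed the threshold. At an unadjusted p under 0.05 in limma there were 2, CUL4A and CUL5, which is near the 27.8% of all genes at that level. CUL1, the scaffold of the SCF ligases, stood at 10.24, 10.21 and 10.11 in the miR-17 TuD arrays and at 10.30, 10.14 and 10.13 in the NC TuD arrays. The groups overlapped, and the difference of -0.0046 had a 95% interval from -0.17 to 0.16. CUL3, which holds BTB-domain receptors, stood at 13.30, 13.23 and 13.21 against 13.33, 13.30 and 13.28, a difference of -0.058 (95% interval -0.14 to 0.027). CUL2, which like CUL5 works with the elongins, differed by -0.041 (-0.17 to 0.090), and CUL4B, a scaffold for DDB1-bound receptors, by -0.024 (-0.19 to 0.14). The other 3 tested CUL4B probe sets differed by 0.069, 0.12 and 0.17, with overlapping groups and none called. Over the 23 tested cullin probe sets, 11 differences were above 0 and 12 below.

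CUL5 gave one of the larger differences among the scaffolds, at 9.96, 9.96 and 9.71 against 10.09, 10.12 and 10.07. All 3 miR-17 TuD values were below the NC TuD values, with replicate 3 farthest down, and the difference of -0.21 did not pass (adjusted p = 0.158). Without miR-17 TuD replicate 3 it was smaller, -0.13, and passed (adjusted p = 0.0356). A second CUL5 probe set with the suffix s_at differed by -0.054 and one with the suffix x_at by -0.090, neither called. CUL4A, the paralog of CUL4B, differed by -0.091 (adjusted p = 0.0936) on its brightest probe set, where the groups did not overlap. Of its 4 tested probe sets, 3 had the opposite sign. The next brightest differed by 0.083 and the dimmest by 0.016, both with overlapping groups, and another by 0.21 without overlap. None of the 4 was called. CUL7, which pairs with FBXW8, had the highest cullin difference at 0.14 (adjusted p = 0.322) and CUL9, a cullin that binds p53, the lowest at -0.22 (adjusted p = 0.443). The CUL9 value came from 1 array: miR-17 TuD replicate 1 stood at 6.17 and the other five between 6.68 and 6.82, and without that array the difference was -0.052 (adjusted p = 0.588).

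SKP1, the adaptor between CUL1 and the F-box proteins, stood at 14.71, 14.63 and 14.68 in the miR-17 TuD arrays against 14.74, 14.72 and 14.74 in the NC TuD arrays. Its difference was -0.059 (95% interval -0.12 to 0.0054, adjusted p = 0.21), and all 4 of its probe sets had a difference below 0, none of them called. RBX1, a RING protein, stood at 14.46, 14.41 and 14.42 against 14.43, 14.34 and 14.42. The groups overlapped, and the difference was 0.034 (-0.048 to 0.12, adjusted p = 0.533). Both intervals for these shared subunits include 0.

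FBXO31 stood at 7.98, 7.98 and 8.36 in the miR-17 TuD arrays and at 7.50, 7.36 and 7.61 in the NC TuD arrays. Every miR-17 TuD value was above every NC TuD value, and miR-17 TuD replicate 3 was the highest. The means were 8.10 ± 0.22 and 7.49 ± 0.12 (SD, n = 3), a difference of 0.62 (95% interval 0.26 to 0.97, adjusted p = 0.0554 in limma). It passed with quantile normalization (0.65, adjusted p = 0.0286), with median centring (0.64, adjusted p = 0.0146) and with the stricter filter, at the 60th percentile of mean level (adjusted p = 0.0187). It passed in none of the 6 leave-one-out fits, each without 1 array (adjusted p from 0.056 to 0.171). The probe set has the suffix s_at, which marks probes that can bind transcripts of more than 1 gene. The other FBXO31 probe set, near the low end of the scale, stood at 3.83, 3.57 and 3.74 against 3.57, 3.55 and 3.67, a difference of 0.12 (adjusted p = 0.468 over probe sets), and with both averaged the gene's difference was 0.37 (adjusted p = 0.0681).

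**Figure D2:**
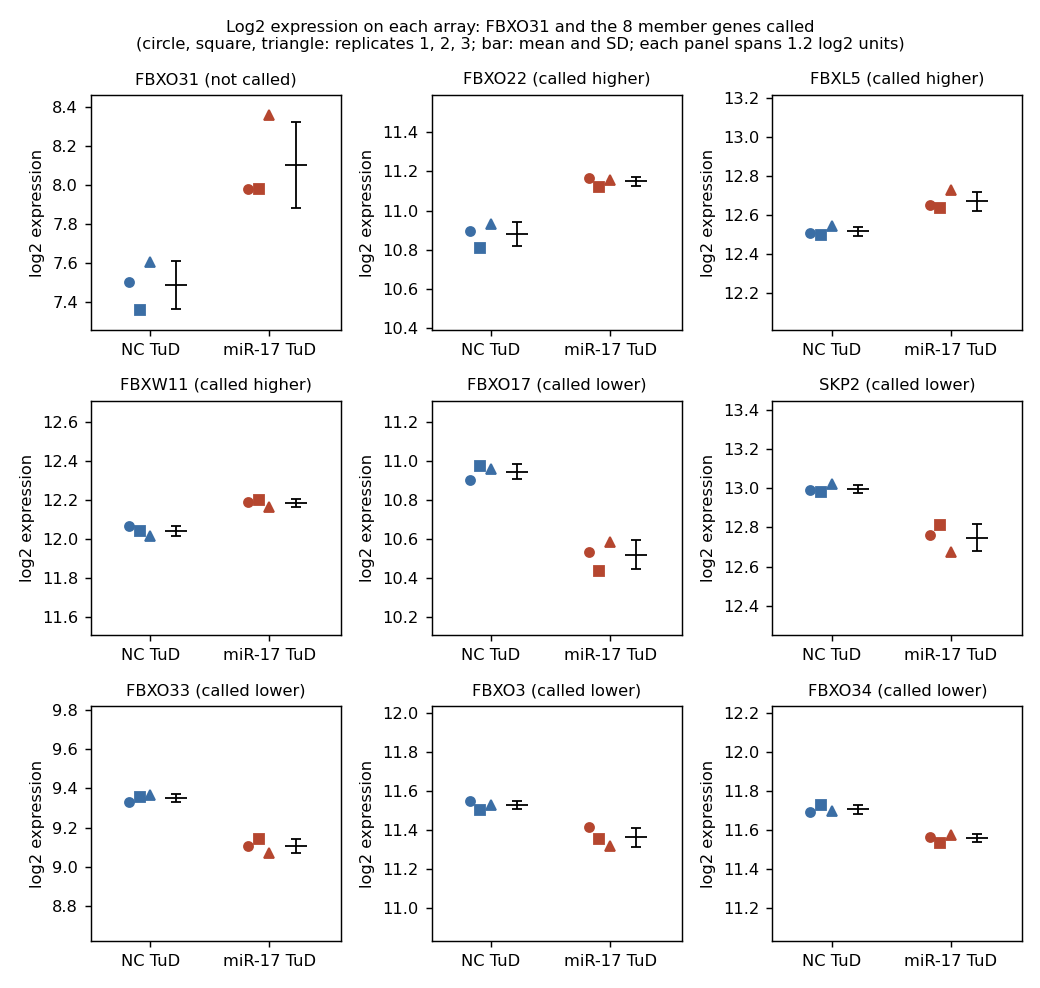
Log2 expression (y axis) on each of the 6 arrays for FBXO31 and the 8 called genes, with circles, squares and triangles for replicates 1, 2 and 3 and a bar for the mean and SD of each group; each panel spans 1.2 log2 units. The groups do not overlap in any of the 9 panels, and FBXO31, not called, has both the largest gap and the widest scatter.

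Among the receptors with other domains, FBXO22 rose. FBXO22, whose reported substrates include the histone demethylase KDM4A, stood at 11.17, 11.12 and 11.16 in the miR-17 TuD arrays and at 10.90, 10.81 and 10.93 in the NC TuD arrays. The groups were well apart, by 0.27 or 1.21-fold (SE 0.036, adjusted p = 0.0194 in limma). Of its 5 probe sets, 4 had a difference above 0. Another 2 bright ones differed by 0.22 and 0.15 without overlap, at adjusted p = 0.0531 and 0.065 over probe sets. The fifth, at 2.26 to 2.89, differed by -0.21 (adjusted p = 0.487) with overlapping groups. The gene's call ended when any miR-17 TuD array or NC TuD replicate 1 was dropped (adjusted p from 0.0534 to 0.0734), with differences from 0.26 to 0.28 in these fits. The gene was called with all its probe sets averaged, at a difference of 0.13, smaller than on the brightest probe set (adjusted p = 0.0309).

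FBXO17, one of the F-box proteins that bind sugar chains of glycoproteins, had the largest fall. It stood at 10.53, 10.44 and 10.59 in the miR-17 TuD arrays and at 10.90, 10.98 and 10.96 in the NC TuD arrays. The gap between the groups was several times the spread inside them, and the difference was -0.43, 1.34-fold lower (SE 0.045, adjusted p = 0.0124). FBXO17 has 1 probe set. Its call ended when an NC TuD array was dropped (adjusted p = 0.0501, 0.0607 and 0.0567 without replicates 1, 2 and 3), with the difference between -0.45 and -0.41.

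FBXO33, a receptor reported for the RNA- and DNA-binding protein YBX1, stood at 9.11, 9.14 and 9.07 against 9.33, 9.35 and 9.37. Its second probe set stood at 8.44, 8.32 and 8.33 against 8.63, 8.67 and 8.65. Both probe sets fell, by 0.24 and 0.28 on the log2 scale, and both were called over probe sets (adjusted p = 0.0157 and 0.0298). Neither carries the suffix s_at or x_at. At the gene level the adjusted p was 0.00968, the lowest of the members, and the call ended without NC TuD replicate 2 alone among the 6 leave-one-out fits (adjusted p = 0.0515).

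FBXO3 and FBXO34 fell by less. FBXO34 stood at 11.56, 11.54 and 11.57 against 11.69, 11.73 and 11.70, a difference of -0.15 (adjusted p = 0.0139), and its call ended when an NC TuD array was dropped (adjusted p from 0.0508 to 0.0557). FBXO3 stood at 11.42, 11.35 and 11.32 against 11.55, 11.51 and 11.53, a difference of -0.17 (adjusted p = 0.0375). The FBXO3 call rests on that probe set. The next brightest differed by -0.016 and -0.0042 with overlapping groups, and with the 5 tested probe sets averaged the difference was -0.0097 (adjusted p = 0.946). That average includes a probe set near the floor, at 2.23 on every array but miR-17 TuD replicate 1, where it stood at 2.93. It differed by 0.23, while the other 4 differed by less than 0. The FBXO3 call also ended with median centring (adjusted p = 0.0852), with no filter (adjusted p = 0.0726) and in 5 of the 6 leave-one-out fits, the exception being miR-17 TuD replicate 1 (adjusted p from 0.0642 to 0.125).

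The remaining receptors of this class did not pass, 26 of 31 in all with FBXO31 among them. CCNF, the cyclin F that gave the F-box its name, stood at 9.72, 9.80 and 9.82 against 9.69, 9.57 and 9.65, a difference of 0.14 without overlap (adjusted p = 0.126), and its second probe set differed by 0.14 too with overlapping groups. FBXO5, the anaphase-promoting complex inhibitor EMI1, stood at 12.21, 12.22 and 12.19 against 12.29, 12.24 and 12.33, a difference of -0.083 without overlap (adjusted p = 0.114). FBXO2, another glycoprotein-binding receptor, had the largest uncalled fall of the class at -0.32 (adjusted p = 0.16). It stood at 8.29, 8.39 and 8.62 against 8.88, 8.62 and 8.77, with overlapping groups, on a probe set with the suffix x_at.

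Of 14 tested receptors with leucine-rich repeats, FBXL5 rose and SKP2 fell. SKP2, the receptor for the cell cycle inhibitor p27, was seen through 3 probe sets that agreed in direction. The brightest stood at 12.76, 12.81 and 12.67 in the miR-17 TuD arrays and at 12.99, 12.98 and 13.02 in the NC TuD arrays. The second stood at 11.36, 11.21 and 11.26 against 11.56, 11.62 and 11.57, and the third at 11.59, 11.51 and 11.47 against 11.76, 11.68 and 11.81. In each the groups did not overlap, and the differences were -0.25, -0.31 and -0.23 (adjusted p = 0.0406, 0.0365 and 0.0679 over probe sets). The 3 probe sets have the suffix s_at or x_at. At the gene level SKP2 was 1.19-fold lower (adjusted p = 0.0268), and the call ended without miR-17 TuD replicate 1 (adjusted p = 0.0705), when an NC TuD array was dropped (adjusted p from 0.0936 to 0.0968) and with no filter (adjusted p = 0.0547).

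FBXL5, the iron-sensing receptor that turns over the iron regulatory protein IRP2, rose on both of its probe sets by unequal amounts. The brightest stood at 12.65, 12.64 and 12.73 against 12.51, 12.50 and 12.54, a difference of 0.16. The dimmer stood at 8.68, 8.56 and 8.48 against 8.23, 8.14 and 8.11, a difference of 0.41. Over probe sets the dimmer one was called (adjusted p = 0.0375) and the brightest was not (adjusted p = 0.0586), while at the gene level the brightest passed (adjusted p = 0.0412). That call ended with quantile normalization (adjusted p = 0.0527), with no filter (adjusted p = 0.0791) and in 5 of the 6 leave-one-out fits, the exception being miR-17 TuD replicate 3 (adjusted p from 0.0698 to 0.142). With both probe sets averaged the difference was 0.29 (adjusted p = 0.00973).

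The largest uncalled differences among these receptors were those of FBXL6, at 0.13 (adjusted p = 0.153), and FBXL16, at -0.30 (adjusted p = 0.147). FBXL16 stood at 5.08, 5.05 and 5.33 against 5.45, 5.34 and 5.56, with groups that just failed to overlap. FBXL21P, which RefSeq lists as a pseudogene, had 3 probe sets whose groups did not overlap, at -0.19, -0.20 and -0.31. The first was called over probe sets (adjusted p = 0.0319), and the gene, through its brightest probe set, was not (adjusted p = 0.2).

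Of 9 tested receptors with WD40 repeats, FBXW11 alone was called. FBXW11 and BTRC encode the β-TrCP proteins, paralogs that recognise the same phosphorylated motif in β-catenin and IκB. FBXW11 stood at 12.19, 12.20 and 12.16 in the miR-17 TuD arrays against 12.06, 12.04 and 12.02, a rise of 0.14, 1.10-fold (SE 0.017, adjusted p = 0.016). Its other probe set differed by 0.081 with overlapping groups (adjusted p = 0.393 over probe sets), and the call ended with the probe sets averaged (0.11, adjusted p = 0.077). It also ended when miR-17 TuD replicate 2 (adjusted p = 0.0522) and NC TuD replicates 2 (0.0713) and 3 (0.0518) were dropped in turn.

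BTRC stood at 9.42, 9.40 and 9.41 against 9.41, 9.42 and 9.40 on its brightest probe set. The 6 values were nearly the same, with a difference of -0.0023 and a 95% interval from -0.029 to 0.024. Its other 3 tested probe sets differed by 0.22, 0.03 and 0, none of them called. Whether the change of FBXW11 differs from that of BTRC was not tested.

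FBXW7, the receptor for cyclin E, MYC and NOTCH, stood at 7.72, 7.99 and 7.81 in the miR-17 TuD arrays against 8.04, 8.19 and 8.11. The groups did not overlap, and the difference of -0.27 (95% interval -0.50 to -0.053) did not pass (adjusted p = 0.117). Another 2 of its probe sets differed by -0.22 and -0.20, and the fourth, at 2.23 on 5 of 6 arrays, by 0.12. FBXW9 had the largest difference of the class above 0, with 9.84, 9.69 and 9.82 against 9.66, 9.50 and 9.62, at 0.19 (adjusted p = 0.124).

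**Figure D3:**
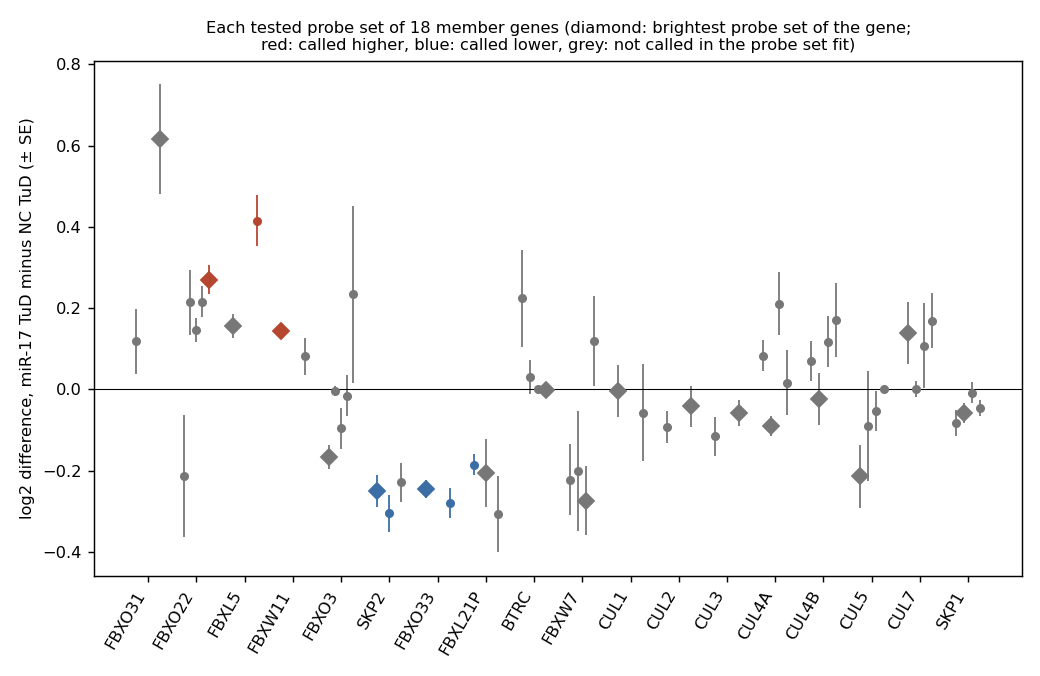
Log2 difference (y axis, ± SE from limma) of each tested probe set for 18 genes with more than 1; the diamond is the brightest probe set of the gene. SKP2, FBXO33, FBXL5 and FBXL21P keep one sign over their probe sets, while CUL4A, CUL4B, FBXO3, FBXO22, BTRC and FBXW7 hold both signs.

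At the level of probe sets, 145 of the 187 passed the filter, and 10 were called, 3 higher and 7 lower. That is 6.9% of those tested, against 5.83% of all 32768 probe sets (3.35% higher and 2.48% lower). Among the 40 genes with more than 1 tested probe set, 20 had all differences of one sign and 20 did not. No gene had probe sets called in opposite directions. In 5 genes a called probe set stood beside an uncalled one.

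The calls depended on the number of arrays. Of the 8 called genes, 0 were called in all 6 leave-one-out fits, and 7 were called in 3 or fewer. Leaving out an NC TuD array mattered most. Without replicates 1, 2 and 3, the members called were 2, 2 and 2, of which 2, 1 and 2 were among the 8. The share of all genes called fell to 2.68%, 2.68% and 3.67%. Without miR-17 TuD replicates 1, 2 and 3, the members called were 7, 4 and 7, of which 5, 4 and 6 were among the 8. The share of all genes called was then 7.92%, 5.82% and 8.91%. The signs of the 8 differences were the same in every one of these fits. That had to be so, because the groups of these genes do not overlap, and it says nothing of stability.

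**Figure D4:**
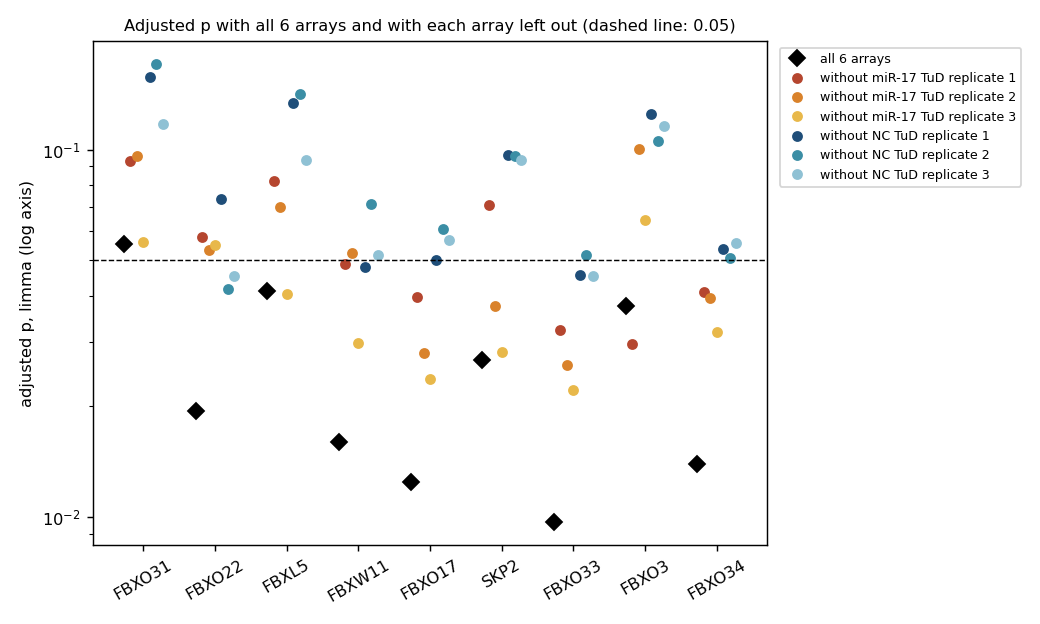
Adjusted p in limma (y axis, log scale) of FBXO31 and the 8 called genes with all 6 arrays (black diamond) and with each array left out (coloured points); the dashed line is 0.05. FBXO33 has 5 of its 6 coloured points under the line, and FBXO31 has none.

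The other parts of the machinery were followed through lists of 84 genes, of which 78 were tested. Of these, 9 rose and 2 fell, which is 14.1% called against 11.4% of all genes, and the median difference was 0.012. By direction, 11.5% rose against 6.78% of all genes, and 2.56% fell against 4.6%. The first list covers NEDD8, the ubiquitin-like protein that switches cullins on, its removal, and the regulators CAND1, CAND2 and GLMN. Of its 22 tested genes, 3 rose and none fell. That is 13.6% called, near the 11.4% of all genes. The 3 encode subunits of the COP9 signalosome, which strips NEDD8 from cullins: COPS3 (0.17, adjusted p = 0.0446), COPS6 (0.15, adjusted p = 0.0229) and COPS8 (0.066, adjusted p = 0.0341). The list holds 9 genes of that complex, counted after the values were seen, and the other 6 were not called, with COPS4 at -0.0091 and COPS7A at -0.022. Each of these calls ended in at least 4 of the 6 leave-one-out fits. COPS3 was called in none of them (adjusted p from 0.0755 to 0.128), COPS6 only without miR-17 TuD replicate 3 (up to 0.075), and COPS8 only without miR-17 TuD replicates 1 or 3 (up to 0.119). COPS8 also missed with quantile normalization (adjusted p = 0.15), median centring (0.138), the 60th percentile filter (0.156) and probe sets averaged (0.0734), COPS6 with probe sets averaged (0.0768), and COPS3 with no filter (0.0856) and array weights (0.0626). With s_at and x_at probe sets left out, COPS3 (adjusted p = 0.0535), COPS6 (0.175) and COPS8 (0.0617) all missed.

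The 29 genes listed for substrate adaptors of other cullins include RNF7, a RING protein like RBX1. Among the 29, SOCS2, DCAF8 and KLHL22 rose, and ZYG11B and CRBN, named after their values were seen, fell. That is 17.2% called, against 11.4% of all genes. SOCS2, a CUL5 receptor that damps growth hormone signalling, stood at 10.97 ± 0.045 against 10.56 ± 0.032 (SD, n = 3), a difference of 0.41 (adjusted p = 0.00732 in limma), and was called in each leave-one-out fit. CRBN, the CUL4 receptor that binds thalidomide, fell by 0.13 (adjusted p = 0.00945) and was also called in all 6, but not with median centring (-0.11, adjusted p = 0.0736). ZYG11B, a CUL2 receptor, fell by 0.26 (adjusted p = 0.018), and by 0.16 with its probe sets averaged. DCAF8, a CUL4 receptor, differed by 0.38 (adjusted p = 0.0145) and, on a probe set without the suffix s_at, by -0.15 (adjusted p = 0.381), with 0.13 over its probe sets averaged. KLHL22, a CUL3 receptor, differed by 0.31 (adjusted p = 0.0428) and missed with no filter (adjusted p = 0.0845) and with s_at and x_at probe sets left out (0.0517). The calls of DCAF8, KLHL22 and ZYG11B ended when an NC TuD array was dropped (adjusted p from 0.0521 to 0.147), those of KLHL22 and ZYG11B also without miR-17 TuD replicate 2 (0.0513 and 0.0586), and that of KLHL22 without miR-17 TuD replicate 1 (0.0954).

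Of 10 tested conjugating enzymes and partners of SCF ligases, CDC34, the enzyme that extends ubiquitin chains on SCF substrates, rose by 0.29 (adjusted p = 0.0278), a call that ended when miR-17 TuD replicate 1 or an NC TuD array was dropped (adjusted p from 0.0755 to 0.0986) and with no filter (0.0571). With its probe sets averaged the difference was 0.14. The anaphase-promoting complex, a related ligase with a cullin-like subunit, had 2 of 17 tested genes higher and none lower. That is 11.8% called, near the 11.4% of all genes. CDC23, one of the core subunits of the complex, rose by 0.26 (adjusted p = 0.00928) and was called in each leave-one-out fit, though not with its probe sets averaged (adjusted p = 0.0525). UBE2C, the ubiquitin-conjugating enzyme of the complex, rose by 0.074 (adjusted p = 0.0382), and its call ended in each leave-one-out fit except that of miR-17 TuD replicate 1 (adjusted p from 0.0533 to 0.132). It also missed with quantile normalization (0.0936), median centring (0.121), no filter (0.0601) and the 60th percentile filter (0.129).

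The 9 genes with no probe set past the filter were FBXL13, FBXL22, FBXO15, FBXO27, FBXO39 and FBXW10B, with the non-coding FBXL9P, FBXL19-AS1 and FBXO38-DT. Their values did not exceed 2.13 on any array, at the floor of the scale, where a change would not be seen.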

How the data were processed

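The deposited table holds 1 log2 value per probe set for each of 6 arrays, made by the authors. Per the submitters' processing notes, RMA and GCRMA were used, without version or role; which software and genome build applied was not stated. The many values at one floor limit what can be seen of weak transcripts, and background correction can stretch or shrink small differences. Of 54675 probe sets, 62 controls were left out. GEO's platform annotation gives 41091 of the others 1 symbol, 1801 several and 11721 none. Symbols were updated by Entrez identifier through RefSeq (GRCh38.p14; 41037 probe sets matched, and all 75 member genes).

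Probe sets with a mean at or under the 40th percentile of all means (2.14) were left out, which left 32768. A gene was represented by its probe set of highest mean, giving 13949 genes. The comparison used lmFit and eBayes of limma 3.58.1, 2-sided, under R 4.3.3, with Benjamini-Hochberg adjustment at 0.05, over genes and over probe sets. The number of arrays, 3 a group, limits the precision. The steps were tested on simulated data. Alternatives changed the scaling, filter, variance model, weights, block, choice of probe set and arrays. Members named were those called at either level, a fixed panel of 17 genes, and the largest uncalled difference up and down in each structural class; each pathway list gave up to 3 called genes. The members and lists were chosen with earlier results of these data known.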

Additional observations from a re-analysis of the deposited data

How the results depend on the processing

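Of 66 tested member genes, the 3 called higher and 5 called lower (11.4% of all genes called) became 4 and 5 with quantile normalization (13.3%) and with array weights (11.9%), 5 and 4 with median centring (15.4%), 5 and 6 of 56 with the 60th percentile filter (19.5%), 2 and 3 of 75 with no filter (3.99%), 3 and 4 with probe sets averaged (10.6%) and 3 and 4 of 57 when suffixed probe sets (s_at, x_at) were dropped (8.33%). Without each array in turn the counts ranged from 0 to 3 higher and from 1 to 5 lower. The called member probe sets, 3 higher and 7 lower, became 7 higher with median centring, 6 higher with the 60th percentile filter, and 0 higher and 1 lower with no filter (15 and 19 at an unadjusted p under 0.05 in limma). They ranged from 0 to 2 and from 0 to 5 with an array left out. Of the pathway genes, 9 higher and 2 lower, 5 were higher with no filter and 4 with suffixed ones dropped, and 4 were lower with quantile normalization, 1 with median centring, 4 with the 60th percentile filter and 5 with probe sets averaged (2 to 7 higher and 1 to 3 lower with an array left out). All genes called, 1588, became 789 with no filter and 927 with suffixed ones dropped (374 to 1243 with an array left out), and all probe sets called, 1910, became 2930 with median centring, 554 with no filter and 3271 with the 60th percentile filter (145 to 1155). The cause was not tested.

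The replicate numbers pair the samples in no label, so they were not taken as pairs in the main fit. Same-numbered arrays deviated together at correlations of 0.032, 0.13 and 0.10 over genes, and differently numbered ones at -0.10 to 0.0010. Each array correlated best with its own number, a hint of pairing in the data that the main fit does not use. With the replicate block, 822 genes and 0 probe sets were called (7488 at an unadjusted p under 0.05 in limma). The members called were 4 higher and 0 lower, against 5.89% of all genes (13 lower at an unadjusted p under 0.05, a level reached by 28.2% of all genes in either direction), no member probe set was called in either direction (0 higher and 0 lower, 18 and 23 at an unadjusted p under 0.05), and 4 pathway genes were higher. FBXW9 passed in that fit at adjusted p = 0.0375. Each of the lower member calls ended in it: FBXO33 (adjusted p = 0.0508), FBXO17 (0.0583), FBXO34 (0.0749), SKP2 (0.0931) and FBXO3. Pathway calls that ended with the block were those of CRBN (adjusted p = 0.0554), CDC23 (0.0577), COPS3 (0.0869), COPS6 (0.0569), COPS8 (0.102), KLHL22 (0.0794) and UBE2C (0.0966).

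Signs turned where differences were near 0 or probe sets disagree. BTRC was 0.020 with median centring, 0.063 with probe sets averaged, 0.22 with suffixed ones dropped, and from -0.0071 to 0.0031 in leave-one-out fits (0.0031 when replicate 2 of either group was dropped). CUL1 was 0.018 with median centring, 0.012 with array weights, 0.035 without miR-17 TuD replicate 3 and 0.052 without NC TuD replicate 1 (leave-one-out range -0.034 to 0.052). CUL2 was 0.00054 without NC TuD replicate 1 (range -0.071 to 0.00054). CUL4A was 0.055 with probe sets averaged and 0.21 with suffixed ones dropped, and CUL4B 0.083 with probe sets averaged, 0.011 without miR-17 TuD replicate 3 and 0.0086 without NC TuD replicate 1 (range -0.077 to 0.011). DCAF8 was -0.15 with suffixed ones dropped.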

Other observations

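FBXO2, FBXO6, FBXO17, FBXO27 and FBXO44 are related F-box proteins, of which some, though not all, are known to bind glycoprotein sugar chains. The grouping was made after their values were seen. FBXO17 was called lower at -0.43. FBXO6, not called, stood at 8.25 ± 0.069 against 8.46 ± 0.099 (SD, n = 3), a difference of -0.21 without overlap between the groups (adjusted p = 0.119 in limma). FBXO2, not called, differed by -0.32, FBXO44 by -0.011 (adjusted p = 0.533) and FBXO27 was at the floor of the scale. The FBXO2 and FBXO44 values come from probe sets with the suffix x_at.

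FBXO11, a receptor for the B-cell repressor BCL6, was also chosen after its values were seen. It came close to the threshold, with a difference of -0.14 without overlap (adjusted p = 0.0577 in limma), and its 3 probe sets differed by -0.25 to 0.017.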
